A study of Homo sapiens with 6 samples.

Results

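The genes described here are 35 human genes of the amino acid transporter families SLC1, SLC3, SLC7, SLC36, SLC38 and SLC43. They were taken by symbol and matched to 35 of the 60617 gene identifiers counted. They were followed by RNA sequencing in 6 xenograft tumors of the human melanoma line WM983-B, an established line. The anle138b group held 3 tumors of hosts that received this diphenyl-pyrazole small molecule systemically, and the untreated group held 3 tumors of hosts given no treatment. All 6 tumors came from 1 cell line, no vehicle-treated group was analysed here, and the sources used here do not give the dose, the duration or the host strain. The labels do not say whether each tumor had its own host animal, and p-values therefore measure only how far these libraries spread, which may be technical. Sample names followed 2 styles, each used for both groups: 4 libraries (replicates 1 and 2 of each group) shared 1 style and 2 libraries (replicate 3 of each group) the other. What the styles stand for is not said. The sets are called the 4-library set and the 2-library set, and the set entered every test as a term.

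Amino acids cross membranes only through carriers such as these. Members of the SLC1 family take up acidic or small neutral amino acids together with sodium, the SLC38 family carries glutamine, alanine and other small neutral ones, and the cationic carriers of the SLC7 family bring in arginine and lysine. Other SLC7 proteins are light chains that reach the cell surface only when linked by a disulfide bond to a heavy chain, SLC3A2 (also called CD98) or SLC3A1. Growing tumors, melanoma among them, rely on such carriers for glutamine, leucine and cystine. Several of the genes are textbook targets of ATF4, the transcription factor of the amino acid response, which binds a CARE (C/EBP-ATF response element).

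Of the 35 genes, 29 had enough counts to be tested, and 1 of these changed with treatment. SLC1A4, which encodes the alanine, serine, cysteine and threonine carrier ASCT1, rose to 337 ± 16.7 CPM in anle138b tumors, against 91.9 ± 12.7 CPM in untreated tumors (mean ± SD, n = 3 each, CPM, counts scaled to library depth by TMM). The other 28 tested genes were not called, with log2 fold changes between -0.70 and 0.66, of which 26 lay within 0.5 of no change. In simulated data the same test called 34% of genes changed by 0.5 log2 and 94% of those changed by 1. Between the 2-library and the 4-library set 9 of the 29 transporter genes differed. Over all 20423 genes tested, 15.5% differed between the sets and 1.05% changed with treatment.

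The windows at 2 annotated starts of SLC1A4 are shown because it is the gene that changed, with SLC1A5, its closest relative, and SLC7A5, the abundant leucine carrier, for comparison. Each line gives the 250 bases before the start and the first 20 after it, 5′ to 3′ on the strand of the gene, from RefSeq (GRCh38.p14). Capitals mark matches on either strand to the CARE (TGATGNAA), the antioxidant response element (TGACNNNGC) or the E-box (CACGTG).
SLC1A4 at chr2:64988229-64988498, plus strand: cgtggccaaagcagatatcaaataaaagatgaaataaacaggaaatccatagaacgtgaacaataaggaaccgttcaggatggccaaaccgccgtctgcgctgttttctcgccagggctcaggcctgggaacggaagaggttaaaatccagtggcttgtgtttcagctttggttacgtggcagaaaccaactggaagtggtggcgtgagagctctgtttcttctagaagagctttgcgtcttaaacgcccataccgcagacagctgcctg
SLC1A4 at chr2:64989149-64989418, plus strand: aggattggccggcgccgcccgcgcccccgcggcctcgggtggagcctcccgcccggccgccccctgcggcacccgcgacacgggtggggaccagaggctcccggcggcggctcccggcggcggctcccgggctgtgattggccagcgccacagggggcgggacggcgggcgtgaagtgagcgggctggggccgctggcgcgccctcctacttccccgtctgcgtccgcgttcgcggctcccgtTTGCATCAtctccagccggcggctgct
SLC1A5 at chr19:46788575-46788844, minus strand: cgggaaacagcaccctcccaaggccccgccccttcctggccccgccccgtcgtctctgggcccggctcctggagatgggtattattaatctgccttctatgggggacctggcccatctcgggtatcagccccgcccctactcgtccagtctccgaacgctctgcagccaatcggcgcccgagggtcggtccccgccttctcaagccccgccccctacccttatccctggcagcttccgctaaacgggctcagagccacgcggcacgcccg
SLC7A5 at chr16:87869488-87869757, minus strand: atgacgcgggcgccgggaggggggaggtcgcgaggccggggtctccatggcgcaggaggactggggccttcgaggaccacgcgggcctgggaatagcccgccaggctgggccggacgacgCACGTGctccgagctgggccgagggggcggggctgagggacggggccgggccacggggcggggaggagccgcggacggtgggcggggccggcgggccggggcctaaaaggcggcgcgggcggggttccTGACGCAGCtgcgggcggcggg

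The second SLC1A4 window holds a CARE match, read on the opposite strand as TTGCATCA, from position -7 to position 1 relative to the start. The first SLC1A4 window and the SLC1A5 window shown, which is at the gene's outermost annotated start, hold no match. SLC1A5 has other windows, at starts further inside the gene, that are not printed and do hold matches: a CARE (TGATGCAA, positions -97 to -90) in 1 of them, and an antioxidant response element (GCGAGGTCA, read on the opposite strand) with an E-box in another. The changed gene and its relative therefore both had a CARE match in 1 of their windows. The SLC7A5 window holds an E-box and, across the start, TGACGCAGC. Searched over 250 bases before to 50 after the start, the CARE letters were found in 6 of 49 windows of 27 of the transporter genes, against 3.62% of 35116 human windows. Those windows belonged to SLC1A3, SLC1A4, SLC1A5, SLC3A2, SLC7A1 and SLC38A1. The antioxidant response element letters were in 7 of the 49 windows against 13.3% of all windows, and the E-box in 9 of 49 against 7.26%. Windows of the other 8 genes were not analysed here. Several windows can belong to 1 gene, and a match describes letters only. Counts are per gene, so transcripts from the different starts cannot be told apart.

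SLC1A4 (ENSG00000115902) lies on the plus strand of chromosome 2 at 64988477 to 65023865 (hg38, GENCODE release 29), with 10 merged exon blocks of 6939 bases in all and no exon shared with another annotated gene. It had 4154, 4332 and 9813 counts in anle138b tumors, against 1531, 1403 and 1853 in untreated tumors. Scaled for depth, these were 318, 346 and 347 CPM in anle138b tumors and 93.2, 104 and 78.6 CPM in untreated tumors. Every treated tumor lay far above every untreated one, and the spread inside each group was small beside the gap. The log2 fold change was 1.88 ± 0.12 (SE), a 3.69-fold higher level, with an adjusted p of 0.00011 by edgeR's quasi-likelihood test with Benjamini-Hochberg adjustment over 20423 genes. SLC1A4 ranked 6 by p among all genes tested. Of the 134 genes called higher, 35 had a larger fold change than SLC1A4. Of all 215 called genes, 13, with SLC1A4 itself counted, had a mean level at or above that of SLC1A4.

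The rise of SLC1A4 was present in both naming sets. It was 1.75 on the log2 CPM scale in the 4-library set and 2.14 in the 2-library set, and the interaction of 0.39 had an adjusted p of 0.78 by edgeR's quasi-likelihood test. Between the sets themselves SLC1A4 had a log2 difference of -0.12 (adjusted p 0.52, edgeR). Over 15 alternative settings, each single library left out among them, its treatment log2 fold change stayed between 1.75 and 1.96 and was called every time.

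**Figure D1:**
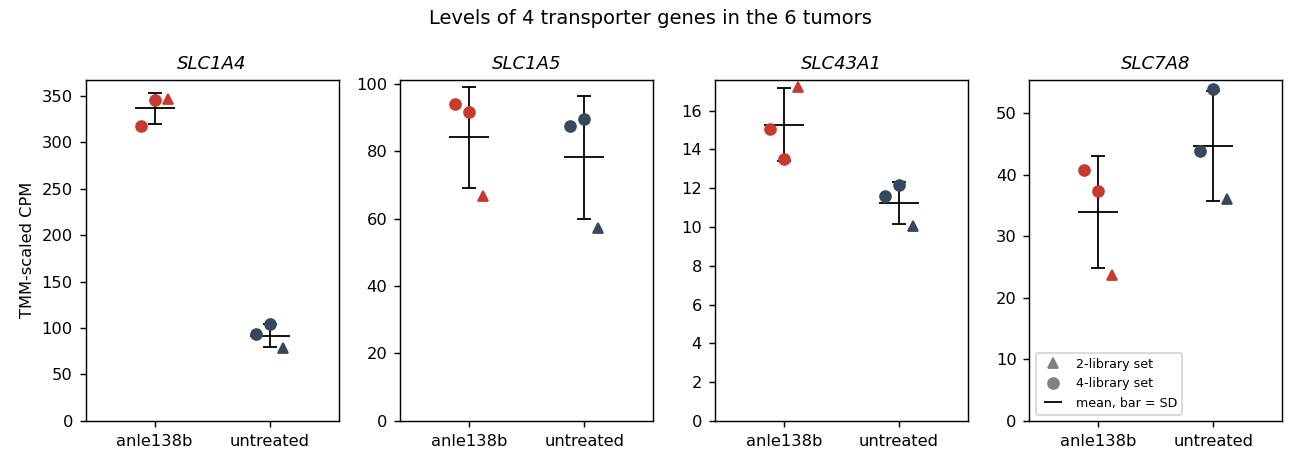
TMM-scaled CPM of SLC1A4, SLC1A5, SLC43A1 and SLC7A8 in each tumor, anle138b left of untreated, with mean ± SD of 3 tumors and marker shape for the naming set. The SLC1A4 points sit at 318 to 347 CPM in anle138b tumors and at 78.6 to 104 CPM in untreated tumors, while those of SLC1A5 and SLC7A8 overlap between the groups.

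Levels of different genes were compared per length, as CPM per kilobase (kb) of merged exon. SLC1A4 had 48.6 ± 2.41 CPM per kb in anle138b tumors and 13.2 ± 1.83 in untreated tumors (SD, n = 3 each). Its share of the summed level of all 35 genes was 11.8%, 14.4% and 15.1% in anle138b tumors, against 3.66%, 3.70% and 4.12% in untreated tumors. The sum itself was 355 ± 29.6 CPM per kb in anle138b tumors and 349 ± 66.9 in untreated tumors, so these ranges overlapped. Without SLC1A4 it was 307 ± 31.9 in anle138b and 336 ± 65.0 in untreated tumors. The plot of levels per tumor shows that the SLC1A4 points form separate clusters, whereas the total of the transporters did not separate the groups.

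No tested gene around SLC1A4 was called. Of 29 annotated genes within 500 kb, 14 were tested. Calls by edgeR, DESeq2 or limma voom numbered 0, against 1.05% of all genes by edgeR. At an unadjusted edgeR p under 0.05 there were 3, against 8.49% of all genes: SERTAD2 higher, and AC007386.1 and LINC02576 lower. Over the 14, log2 fold changes ran from -0.90 for the pseudogene AC007386.1 to 0.37 for the noncoding AC007365.1, both of low level. LINC02576, the nearest tested gene downstream and also of low level, had -0.65 (adjusted p 0.56, edgeR). SERTAD2, the nearest protein-coding gene upstream, had 0.28 (adjusted p 0.49), and CEP68, the nearest downstream, had 0.01 (adjusted p 0.99).

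The remaining SLC1 genes showed no treatment call. SLC1A5 encodes ASCT2, the sodium-dependent glutamine exchanger, and had 93.9, 91.6 and 66.8 CPM in anle138b tumors against 87.6, 89.6 and 57.3 CPM in untreated tumors. Its groups overlapped, its treated tumor was the higher one in both sets, and its log2 fold change was 0.12 ± 0.09 (adjusted p 0.87, edgeR). Per kb, the ratio of SLC1A4 to SLC1A5 was 1.62, 1.81 and 2.49 in anle138b tumors, against 0.511, 0.557 and 0.659 in untreated tumors. By this measure SLC1A5 was the more abundant of the pair in every untreated tumor and the less abundant in every anle138b tumor. SLC1A5 shares 780 exon bases (23.4%) with AC008622.2 on the opposite strand, so its level per kb is uncertain. Of the glutamate carriers, SLC1A1 (log2 fold change 0.09 ± 0.16), SLC1A2 (0.22 ± 0.36) and SLC1A3 (-0.02 ± 0.22) were tested and not called. SLC1A6 and SLC1A7, which are mainly neuronal and retinal, were not tested, with 1, 0 and 35 counts of SLC1A6 in anle138b and 1, 2 and 24 in untreated tumors.

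Across all members the treatment count was 1 of 29 higher and 0 lower, set against 1.05% of all 20423 genes called in either direction (0.656% higher and 0.397% lower). At an unadjusted p under 0.05 there were 4 of 29, namely SLC1A4, SLC43A1, SLC7A8 and SLC7A11, against 8.49% of all genes. CPM ranges of the groups did not overlap for 4 genes, SLC1A4, SLC38A3 and SLC43A1 being higher and SLC3A1 lower in anle138b, against 8.5% of all genes. Treated libraries were on 1 side of untreated ones within both sets for 8 genes, 4 higher and 4 lower, against 19.9%. The median log2 fold change was -0.02 for the 29 genes and -0.01 for all genes tested. The plot of fold changes places SLC1A4 apart from the other 28, whose estimates spread on both sides of 0.

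**Figure D2:**
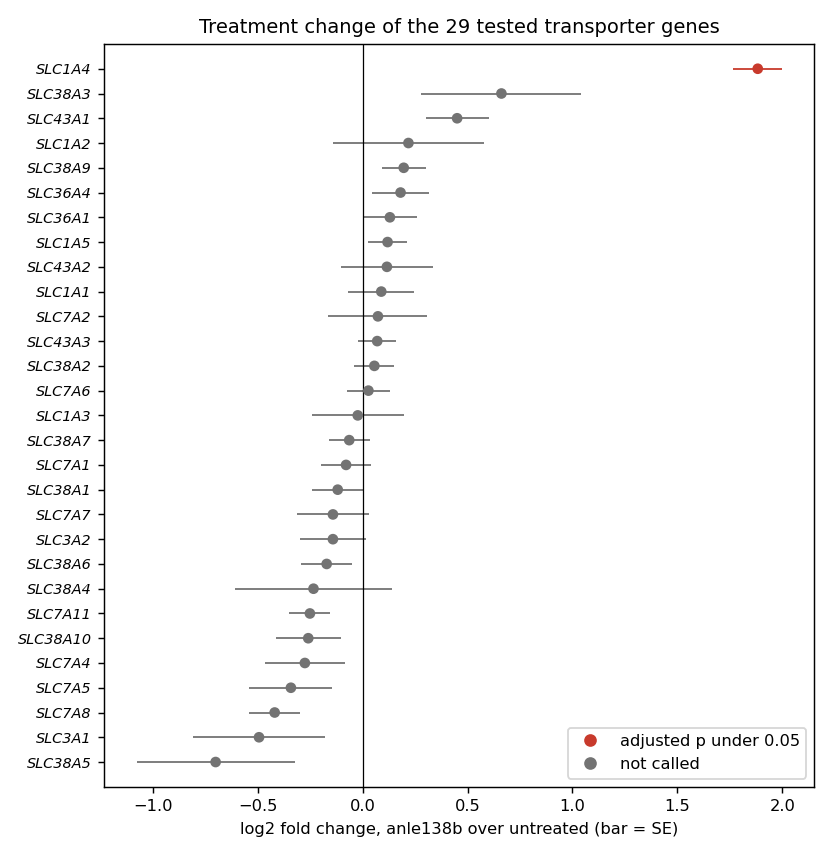
Log2 fold change of the 29 tested transporter genes, anle138b over untreated, with the SE as a bar and genes called at an adjusted p under 0.05 in red. SLC1A4 stands at 1.88, and the other 28 genes lie between -0.70 and 0.66.

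SLC43A1, a facilitated carrier of leucine and other large neutral amino acids, had 15.1, 13.5 and 17.2 CPM in anle138b tumors against 11.6, 12.1 and 10.1 CPM in untreated tumors. All treated values lay above all untreated ones, with a log2 fold change of 0.45 ± 0.15 that did not pass (adjusted p 0.33, edgeR). SLC43A2, a related carrier of large neutral amino acids, had 0.12 ± 0.22, and SLC43A3, which carries purine nucleobases, had 0.07 ± 0.09. SLC7A8, the light chain LAT2, had 40.8, 37.4 and 23.7 CPM in anle138b tumors against 43.9, 53.9 and 36.1 CPM in untreated tumors. It was lower in anle138b within both sets, yet the groups overlapped and the log2 fold change of -0.42 ± 0.12 did not pass (adjusted p 0.21, edgeR). SLC7A11, the cystine and glutamate exchanger, had 87.6, 83.5 and 66.6 CPM in anle138b tumors against 93.5, 109 and 80.1 CPM in untreated tumors. It too was lower within both sets with overlapping groups, and its log2 fold change was -0.25 ± 0.10 (adjusted p 0.46, edgeR).

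Among the heavy chains, SLC3A2 had 335, 243 and 219 CPM in anle138b tumors, against 352, 378 and 185 CPM in untreated tumors. The order of the groups differed between the sets, and the log2 fold change was -0.14 ± 0.16 (adjusted p 0.93, edgeR). SLC7A5, the light chain LAT1 that exchanges glutamine for leucine and other large neutral amino acids, had 326, 226 and 159 CPM in anle138b tumors against 384, 469 and 135 CPM in untreated tumors. It was lower in anle138b by 0.65 on the log2 CPM scale in the 4-library set and higher by 0.24 in the 2-library set, and its treatment log2 fold change was -0.34 ± 0.20 (adjusted p 0.76, edgeR). The interaction of 0.87 had an adjusted p of 0.74 by edgeR. Without anle138b replicate 1 it was 1.17, from a fit with 1 anle138b library left in each set. Of 11 alternatives 2 gave a call, the lowest adjusted p being 0.0081. SLC7A5 also has copies annotated as pseudogenes, SLC7A5P1 with 81 to 230 counts per library and SLC7A5P2 with 0 in every library, so a share of reads could be split between them.

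Per kb, SLC3A2 had 64.7, 46.9 and 42.3 CPM in anle138b tumors and 67.9, 72.9 and 35.6 CPM in untreated tumors. The 6 light chains known to pair with it summed to 89.2, 67.2 and 49.3 CPM per kb in anle138b tumors against 103, 124 and 47.6 in untreated tumors. The ratio of light chains to SLC3A2 was 1.32 ± 0.14 in anle138b and 1.52 ± 0.18 in untreated tumors (SD, n = 3 each), with overlapping ranges. SLC7A5 made up 72.0% ± 4.53 of the light chain sum in anle138b and 72.7% ± 11.3 in untreated tumors. SLC3A2 and the light chain sum, most of which was SLC7A5, were both highest in untreated replicate 2 and lowest in untreated replicate 3. The other light chains did not all follow this order: SLC7A8 and SLC7A11 were lowest in anle138b replicate 3, and SLC7A6 was highest there.

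**Figure D3:**
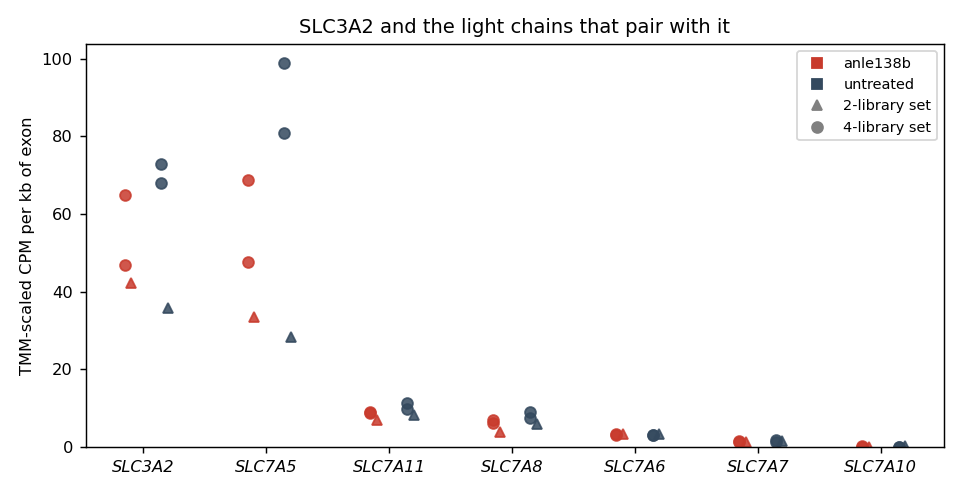
CPM per kb of exon of SLC3A2 and 6 light chains in each tumor, anle138b left of untreated in each pair and marker shape for the naming set. SLC3A2 and SLC7A5 are the abundant chains, and in both of them the 2-library set (triangles) gives the lowest value of each treatment group.

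SLC7A6 and SLC7A7, light chains that exchange cationic for neutral amino acids, had log2 fold changes of 0.03 ± 0.10 and -0.14 ± 0.17. For SLC7A6, 3371 exon bases (44.4%) are shared with SLC7A6OS on the opposite strand, and the library kit does not mark strand. SLC3A1, the heavy chain of the kidney cystine carrier, was near the lower limit of counting with 99 counts over all libraries. It shares 1923 exon bases with PREPL, a gene with 7116 counts, so its level of 0.771 ± 0.175 CPM in anle138b and 1.07 ± 0.110 CPM in untreated tumors is uncertain. Its partner SLC7A9 and the light chain SLC7A10 were not tested. Of the cationic carriers, SLC7A1 had -0.08 ± 0.12 and SLC7A2 0.07 ± 0.24 on the log2 scale, while SLC7A4, a relative with no well-defined cargo, had -0.28 ± 0.19.

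Of the SLC38 family, the 9 genes among the 35 were all tested, with 0 called for treatment by edgeR, DESeq2 or limma voom, and 0 at an unadjusted edgeR p under 0.05. SLC38A8 and SLC38A11, which are not among the 35, are given with the related lists. SLC38A2, the amino acid-responsive carrier SNAT2, had the highest mean level of the 35 genes over all 6 tumors. It had 381, 388 and 465 CPM in anle138b tumors against 352, 384 and 452 CPM in untreated tumors. These ranges overlapped, and the log2 fold change was 0.06 ± 0.10 (adjusted p 0.96, edgeR). SLC38A9, the lysosomal arginine sensor of the mTORC1 pathway, had 41.8, 45.6 and 56.6 CPM in anle138b tumors against 42.3, 36.9 and 46.0 CPM in untreated tumors, a log2 fold change of 0.20 ± 0.10 that did not pass (adjusted p 0.72, edgeR). SLC38A1, a glutamine carrier, SLC38A7, a lysosomal one, SLC38A6 and SLC38A10 had values of -0.12 ± 0.12, -0.06 ± 0.10, -0.17 ± 0.12 and -0.26 ± 0.15. The widest estimates came from genes with few counts: SLC38A5 had -0.70 ± 0.38, from 7, 12 and 17 counts in anle138b and 29, 20 and 13 in untreated tumors. SLC38A3 had 0.66 ± 0.38 and SLC38A4 -0.23 ± 0.38. The proton-coupled carriers SLC36A1 and SLC36A4 had 0.13 ± 0.13 and 0.18 ± 0.13.

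Averaged over all 6 tumors, the level per kb was highest for SLC38A2 (61.2 CPM per kb), SLC7A5 (59.6) and SLC3A2 (55.1), followed by SLC1A4 (30.9), SLC43A3 (24.4) and SLC1A5 (24.4). The first 3 overlapped in their ranges over tumors, and so did SLC43A3 and SLC1A5. SLC43A3 shares 1349 exon bases (29.9%) with AP000781.2 on the same strand, so its level per kb is uncertain. The place of SLC1A4 in this order depended on treatment: it ranked 4 of 35 in anle138b tumors (48.6 CPM per kb) and 8 of 35 in untreated tumors (13.2), where SLC43A3 (23.9), SLC1A5 (23.5), SLC7A1 (17.7) and SLC38A10 (16.4) had higher means. SLC38A2 ranked 1 in anle138b tumors (62.3 CPM per kb), and SLC7A5 ranked 1 in untreated tumors (69.4, against 60.0 for SLC38A2). In all, 9 genes had a mean of at least 10 CPM per kb, and 12 had a mean under 1. The 6 untested genes, SLC1A6, SLC1A7, SLC7A3, SLC7A9, SLC7A10 and SLC7A14, had 24 to 63 counts over all libraries.

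Between the naming sets, 9 of 29 genes differed, 3 higher and 6 lower in the 2-library set, set against 15.5% of all genes (8.32% higher and 7.14% lower). CPM ranges of the sets did not overlap for 8 genes that were higher and 9 that were lower, against 38.3% of all genes. SLC7A2, an inducible carrier of arginine and lysine, had 30.6 CPM (anle138b) and 24.1 CPM (untreated) in the 2-library set. In the 4-library set it had 0.612 and 0.719 CPM in anle138b tumors, against 1.16 and 0.815 CPM in untreated tumors. The gene was near the lower limit of counting in 1 set and readily counted in the other, under both treatments: the log2 difference was 5.00 ± 0.22, a 32.1-fold higher level (adjusted p 2.4e-06, edgeR). SLC7A3, a related cationic carrier that was not tested, had 22 and 11 counts in the 2-library set (anle138b, untreated) and 0 in all libraries of the 4-library set.

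SLC1A3, the glial glutamate carrier EAAT1, had 20.7 CPM (anle138b) and 24.2 CPM (untreated) in the 2-library set. In the 4-library set it had 4.51 and 7.83 CPM in anle138b and 6.58 and 4.59 CPM in untreated tumors. The sets did not overlap, with a log2 difference of 1.93 ± 0.21, a 3.81-fold higher level (adjusted p 0.00047, edgeR). SLC36A1, the proton-coupled carrier of lysosomes and gut, had 28.3 CPM (anle138b) and 25.1 CPM (untreated) in the 2-library set. In the 4-library set it had 17.8 and 22.5 CPM in anle138b and 19.97 and 17.5 CPM in untreated tumors. Again the sets did not overlap, and it was higher by 0.45 ± 0.13 (adjusted p 0.047, edgeR). Its call was lost without anle138b replicate 1 (adjusted p 0.160), anle138b replicate 3 (0.179), untreated replicate 1 (0.0697), untreated replicate 2 (0.106) or untreated replicate 3 (0.195).

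The genes that were lower in the 2-library set included both chains of the LAT1 complex and the glutamine carrier SLC1A5. SLC7A5 averaged 147 CPM in the 2-library set and 351 ± 102 CPM in the 4-library set (SD, n = 4), a log2 difference of -1.20 ± 0.22 (adjusted p 0.0076, edgeR), and without untreated replicate 3 this was -0.78 and not called (0.0736). SLC3A2 averaged 202 CPM in the 2-library set and 327 ± 58.7 CPM in the 4-library set, a difference of -0.68 ± 0.17 (adjusted p 0.027). Its call was lost without anle138b replicate 1 (0.0773), untreated replicate 1 (0.0521) or untreated replicate 3 (0.319, difference -0.38). SLC1A5 averaged 62.1 CPM in the 2-library set and 90.7 ± 2.71 CPM in the 4-library set, a difference of -0.55 ± 0.10 (adjusted p 0.0066), not called without untreated replicate 3 (0.0911). Each of these genes was lower in both libraries of the 2-library set than in all 4 others.

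SLC43A3 had 94.4 CPM (anle138b) and 84.3 CPM (untreated) in the 2-library set, against 123.5 and 119 CPM in anle138b and 123.6 and 115 CPM in untreated tumors of the 4-library set. SLC38A7 had 29.1 CPM (anle138b) and 30.2 CPM (untreated) in the 2-library set, against 39.9 and 36.9 CPM in anle138b and 39.8 and 40.7 CPM in untreated tumors of the 4-library set. Both, like SLC7A8 above, were lower in the 2-library set with no overlap. SLC7A8 differed by -0.58 ± 0.13 (adjusted p 0.018, edgeR), SLC43A3 by -0.43 ± 0.10 (0.019) and SLC38A7 by -0.41 ± 0.10 (0.031). SLC7A8 was not called without anle138b replicate 1 (0.0532) or anle138b replicate 3 (0.127), and SLC43A3 not without anle138b replicate 1 (0.0604), anle138b replicate 3 (0.0533) or untreated replicate 3 (0.217). SLC38A7 was called with all libraries or without anle138b replicate 2, and the adjusted p without each other library was 0.0559 to 0.194. SLC7A11 stood at the threshold with -0.35 ± 0.10 (adjusted p 0.051, edgeR). It was called in 4 of 14 alternative settings, among them without anle138b replicate 2 (0.0283) or untreated replicate 1 (0.0449). Without anle138b replicate 2, SLC7A1 (-0.39, adjusted p 0.0477) and SLC36A4 (0.44, adjusted p 0.0411) were called as well. Of the 14 alternatives, 2 called SLC7A1 and 4 called SLC38A2. With all libraries SLC38A2 was higher in the 2-library set by 0.29 ± 0.10 and not called (adjusted p 0.084, edgeR).

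**Figure D4:**
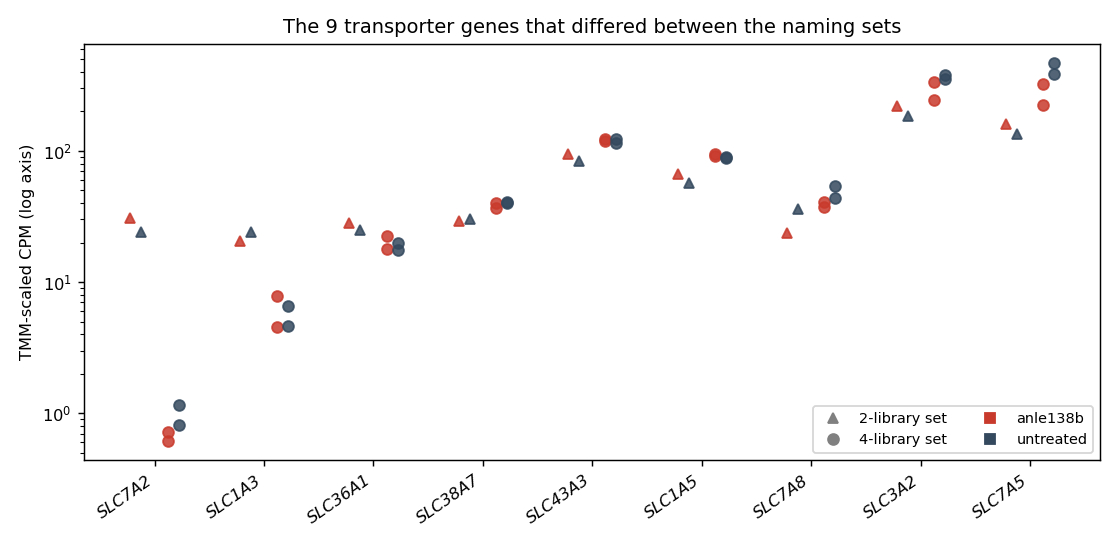
TMM-scaled CPM (log axis) of the 9 genes that differed between naming sets, with the 2-library set (triangles) left of the 4-library set (circles) and anle138b (red) left of untreated (blue) within each. SLC7A2 stands at 30.6 and 24.1 CPM in the triangles and at no more than 1.16 CPM in the circles, while SLC7A5 and SLC3A2 are lower in the triangles.

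The treatment difference was also read inside each set. It had the same sign in both for 17 of 29 genes, SLC1A4 having the highest value in each. An interaction of treatment and set was called for 0 genes by edgeR, DESeq2 or limma voom, against 0 of 20423 by edgeR (0%), and at an unadjusted edgeR p under 0.05 the count was 1, SLC7A5, against 6.59% of all genes. The 2-library set has 1 tumor per group, so its difference has no replicate of its own. In the plot of both sets the other 28 genes gather around the origin, and those farthest from it along the horizontal axis, SLC38A5 and SLC38A3, have mean levels under 10 CPM.

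**Figure D5:**
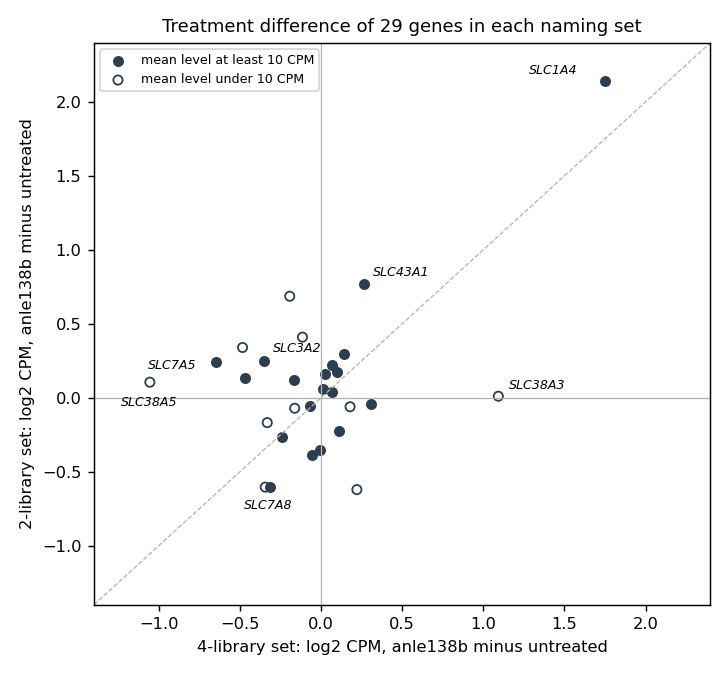
Treatment difference in log2 CPM, anle138b minus untreated, of the 29 tested genes, in the 4-library set (x axis) and the 2-library set (y axis), filled where the mean level is at least 10 CPM. SLC1A4 lies at 1.75 and 2.14, and SLC7A5 at -0.65 and 0.24, on opposite sides of 0.

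Genes that work with these carriers were read in the same tests. Of the 24 genes of the ATF4 and integrated stress response list, 23 were tested. Calls numbered 0 by edgeR, 1 by DESeq2 (PPP1R15A) and 0 by limma voom. DESeq2 called more genes in all than edgeR did. At an unadjusted edgeR p under 0.05 there were 3, against 8.49% of all genes. PPP1R15A, a regulatory subunit of the phosphatase that reverses this response, averaged 82.4 ± 16.98 CPM in anle138b tumors and 58.7 ± 13.7 CPM in untreated tumors (SD, n = 3 each), a log2 fold change of 0.49 ± 0.10 (adjusted p 0.069, edgeR). ATF3 had 0.71 ± 0.22 (adjusted p 0.26, edgeR). ATF5 went the other way, lower in anle138b within both sets at -0.41 ± 0.15 (adjusted p 0.38, edgeR). The list's median was 0.03, with 12 of the 23 log2 fold changes above 0 and 11 below. ATF4 itself had a treatment log2 fold change of 0.03 ± 0.13 (adjusted p 0.99, edgeR). Between the sets, 1 of the 23 was called higher and 6 lower in the 2-library set, against 8.32% higher and 7.14% lower of all genes. ATF4 was among the lower ones, at -0.50 ± 0.14 (adjusted p 0.040, edgeR).

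Amino acid synthesis and breakdown (24 of 30 tested), cytosolic aminoacyl-tRNA synthetases (20 of 20) and mTORC1 amino acid sensing (34 of 34) had 0 calls by edgeR, DESeq2 or limma voom. Their counts at an unadjusted edgeR p under 0.05 were 2, 0 and 2, against 8.49% of all genes. Their medians were 0.03, 0.08 and 0.03. The smallest adjusted p belonged to MTHFD1L, a mitochondrial folate enzyme, at 0.30 ± 0.09 (adjusted p 0.26), to the tyrosine synthetase YARS1 at 0.22 ± 0.10 (0.59) and to TFEB, a lysosomal transcription factor, at -0.40 ± 0.15 (0.43). Among 26 other amino acid and peptide transporters, 16 were tested and 0 were called by any of the 3 tools. Of these 16, 4 had an unadjusted edgeR p under 0.05, 2 higher and 2 lower, against 8.49% of all genes. The taurine carrier SLC6A6 had 0.29 ± 0.09 and SLC25A29 had 0.45 ± 0.15 (adjusted p 0.28 and 0.32, edgeR). SLC6A17 had -0.43 ± 0.14 and SLC66A1 had -0.34 ± 0.15 (adjusted p 0.31 and 0.58, edgeR). Of 5 further members of the same families 1 was tested, SLC38A11 (unadjusted p 0.0025), while SLC38A8 had 0 counts in every library. SLC38A11 had 0.412 ± 0.113 CPM in anle138b and 1.11 ± 0.194 CPM in untreated tumors (log2 fold change -1.39 ± 0.34, adjusted p 0.12, edgeR).

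SLC7A11 relates to the glutathione and cystine list by supplying cystine. Of the list's 13 genes, 11 were tested and edgeR called 1, against 1.05% of all genes. At an unadjusted edgeR p under 0.05 there were 3, against 8.49% of all genes. The median log2 fold change was 0.17, with 9 of the 11 above 0. NQO1, a quinone reductase and textbook target of NRF2, had 596, 482 and 439 CPM in anle138b tumors against 182, 232 and 137 CPM in untreated tumors. The groups were well apart, with a log2 fold change of 1.48 ± 0.14 (adjusted p 0.00098, edgeR). NFE2L2, which encodes NRF2, and the thioredoxin reductase TXNRD1 had 0.41 ± 0.10 and 0.46 ± 0.12 (adjusted p 0.12 and 0.14, edgeR). Both were called by DESeq2, which called more genes in all than edgeR did. SLC7A11, another textbook NRF2 target, had the value of -0.25 given above.

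Depth was 12400782 to 27599159 counts per tumor, and the transporters took 0.175% to 0.219% of them. A level of 3 counts stands for 0.109 to 0.242 CPM, which covers counting error only. Melanoma identity genes were abundant, summing to 15625 to 19233 CPM in anle138b and 14193 to 18483 CPM in untreated tumors. Of these, 10 of 10 were tested, with 0 called for treatment by edgeR, 1 by DESeq2 (DCT) and 0 by limma voom. At an unadjusted edgeR p under 0.05 there were 4 (3 higher and 1 lower), against 8.49% of all genes. Between the sets, 3 of the 10 (MLANA, TYRP1 and S100B) were called higher in the 2-library set and 0 lower, against 8.32% higher and 7.14% lower over all genes. The set difference was above 0 for 5 of the 10. Their sum was 14193 to 15787 CPM in the 2-library set and 15625 to 19233 CPM in the 4-library set, with overlap. Fibroblast genes (10 of 10 tested) summed to 482 to 871 CPM in anle138b and 445 to 594 CPM in untreated tumors, with LUM called higher (0.70, adjusted p 0.025). By set, they summed to 594 to 871 CPM in the 2-library set and 445 to 552 CPM in the 4-library set, with 3 of 10 called higher and 0 lower. Muscle genes (6 of 12 tested) summed to 268 to 445 CPM in anle138b and 255 to 333 CPM in untreated tumors, with 0 called for treatment by edgeR, DESeq2 or limma voom (unadjusted edgeR p under 0.05 in 0) and 3 lower in the 2-library set. Lymphocyte genes (0 of 7 tested) summed to at most 0.688 CPM in anle138b and 2.12 CPM in untreated tumors, with CD3D at 0. Endothelial sums were 34.2 to 36.7 CPM in anle138b and 37.3 to 44.8 CPM in untreated tumors, which did not overlap. Of 9 endothelial genes, 7 were tested, and 4 had an unadjusted edgeR p under 0.05 for treatment, against 8.49% of all genes. Of these 4, KDR and EGFL7 were higher and VWF and TIE1 lower. For treatment, edgeR called 0 endothelial genes, DESeq2 called 1 (TIE1) and limma voom called 0. Between the sets 1 was called higher and 1 lower. TIE1, a receptor of vessel lining cells, had 22.3, 21.2 and 12.5 CPM in anle138b tumors against 31.1, 29.2 and 19.0 CPM in untreated tumors (log2 fold change -0.52 ± 0.11, adjusted p 0.069, edgeR). Myeloid sums were 30.8 to 48.8 CPM in anle138b and 23.3 to 43.8 CPM in untreated tumors. Keratinocyte, adipocyte and red blood cell sums were at most 22.8, 5.31 and 3.75 CPM in anle138b tumors and 24.9, 7.51 and 2.25 CPM in untreated tumors. The sources used here do not say how mouse reads were treated. The part of other cell types in the set and treatment differences was not tested, and in bulk tumors fewer cells of a type and less RNA per cell cannot be told apart.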

How the data were processed

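Per the labels' protocols, TRIzol RNA went into libraries of the TruSeq RNA Library Prep Kit v2. For each tumor the authors deposited a file of raw counts by gene. Per the submitters' processing notes, featureCounts 1.5.0-p1, STAR 2.5.2a and bcl2fastq 2.17.1.14 were the tools and hg38 the build. The sources used here do not give the annotation release or the strand and multiple-mapping settings. GENCODE release 29 gave positions and exon lengths.

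Tests used edgeR 4.0.16 (R 4.3.3): filterByExpr by group (minimum count 10, minimum total 15; 20423 genes kept), TMM scaling, and quasi-likelihood F tests on treatment plus naming set, leaving 3 residual degrees of freedom, or 2 with the interaction. P-values were two-sided and adjusted over all genes tested. Log2 fold changes are anle138b over untreated, or the 2-library over the 4-library set, with SE from the F statistic; log2 CPM used a prior count of 2. Replicate pairs differed beyond sampling noise, so each library counted once. Replicate numbers follow listing order and pair no tumors. The fit was tested on simulated data, with 200 genes of a mean of at least 2 CPM changed by treatment. It called 34% of those changed by 0.5 log2, 94% by 1 and 100% by 2 or 3. Of its calls, 3.53% were false.

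Alternatives were DESeq2 size factors, upper-quartile scaling, library size alone, no low-count filter, at least 50 counts in 3 libraries, DESeq2 1.42.0, limma voom (3.58.1), no set or treatment term, the 4-library set alone, and each library left out. All members were described, with every library's value for called ones and the 4 others with the smallest treatment p. From each pathway list, up to 4 genes with the smallest p could be named. ATF4, genes near SLC1A4, marker genes and further members' library values were chosen after their values were seen. The members and lists were chosen with earlier results of these data known.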

Additional observations from a re-analysis of the deposited data

How the results depend on the processing

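The treatment count of the transporter genes was 1, SLC1A4, under all 15 alternatives. Over all genes it was 215, against 9 with no set term, 754 with no low-count filter, 412 by DESeq2 and 92 in the 4-library set alone; leaving out 1 library gave 89 to 392. The set count of 9 transporter genes was 7 to 13 under other settings and 3 to 13 with 1 library left out; over all genes it was 3157, 6250 with no filter and 993 to 5960 with 1 left out. The interaction count of 0 became 1 (SLC7A5, 0.89, adjusted p 0.0081) with no low-count filter and 0 to 1 with 1 library left out; over all genes it was 262 with no filter, 31 by DESeq2 and 11 by library size alone. It could not be estimated without a library of the 2-library set. With no treatment term SLC7A8 (adjusted p 0.0851) and SLC36A1 (0.0572) lost their set call, as did SLC38A7 by library size alone (0.0596).

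Small treatment values changed sign in the 4-library set alone: SLC1A2 -0.20, SLC1A3 0.13, SLC7A2 -0.58, SLC38A1 0.00018, SLC38A4 0.12 and SLC43A2 -0.057; SLC1A3 was 0.0085 by DESeq2. With 1 library left out, treatment values ran from -0.0072 to 0.19 for SLC1A1, -0.20 to 0.42 for SLC1A2, -0.27 to 0.14 for SLC1A3, -0.33 to 0.036 for SLC3A2, -0.18 to 0.059 for SLC7A1, -0.58 to 0.24 for SLC7A2, -0.23 to 0.016 for SLC7A7, -0.25 to 0.011 for SLC38A1, -0.53 to 0.13 for SLC38A4 and -0.080 to 0.35 for SLC43A2. Set values ran from -0.47 to 0.53 for SLC1A2, -0.33 to 0.079 for SLC1A4, -0.060 to 0.24 for SLC3A1, -0.27 to 0.91 for SLC38A3, -0.48 to 0.13 for SLC38A10, -0.24 to 0.29 for SLC43A1 and -0.23 to 0.25 for SLC43A2. None of these was called, and the cause of the changes was not tested. No paired analysis was possible because the labels give no shared replicate numbers. Depth limits genes of few counts, such as SLC38A5 and the 6 untested ones.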
